A study of Homo sapiens with 3 samples.

Results

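VCaP parental cells with a high share of mitotic transcripts were compared with cells of the same library that had almost none. VCaP is an androgen-responsive line from a prostate cancer metastasis that carries the TMPRSS2-ERG fusion, and these cells had received the vehicle, 0.1% DMSO, for 48 h. For each kept cell, the summed unique molecular identifiers (UMIs, 1 per captured transcript molecule) of TOP2A, MKI67, CENPF, UBE2C, CCNB1, HMMR and DLGAP5 were divided by all UMIs of the cell. The 200 cells of highest share, called high cells here, were set against the 300 of lowest share, called low cells, and the remaining 497 were called middle cells. The 2 compared groups hold 500 of the 997 kept cells of the library and of the 2888 kept cells of the series. The cells were thus chosen by measured values of the same library, so every value of the high over low contrast is a description and carries no test.

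The series holds 3 single-cell libraries made with Drop-seq, a droplet method with barcoded beads, and each group is a single library, which leaves every difference without a replicate. The remaining libraries are VCaP-ENZ48, VCaP cells under 10 µM enzalutamide (ENZ, an antiandrogen) for 48 h, and LNCaP-ENZ168, cells of the prostate cancer line LNCaP under 10 µM ENZ for 168 h. Neither of them entered the choice of the VCaP parental cells. The VCaP parental table held 1000 barcodes, 27348 genes and 19533049 UMIs, and 3 barcodes missed the limits of at least 500 UMIs, at least 300 genes and at most 25% mitochondrial UMIs. Each pair of libraries shared 1 cell barcode. Of the kept barcodes, 86.2% ended in the letter N in place of a base, with 86.5% in the high and 84.3% in the low cells. How these barcodes arose was not settled.

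A dividing cell copies its DNA in S phase, condenses and separates its chromosomes in mitosis, and returns to G1. The transcripts of each step are made in waves. Genes of DNA replication are switched on by E2F factors around the entry into S phase, while genes of mitosis are held off by the DREAM complex and switched on late, in G2, by B-MYB and FOXM1 acting with the same MuvB core. The late genes often carry CCAAT boxes, bound by NF-Y, and a CHR element with the letters TTTGAA or the close variant TTCGAA, whereas the early genes often carry E2F sites such as TTTGGCGC.

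The promoters of 5 genes are shown because they mark the waves that the results follow. CDC20, PLK1 and KIF20A were among the genes with the largest differences between high and low cells, while PCNA and MCM6 peaked in the middle cells. Each line gives the 250 bases before the start of transcription listed first in RefSeq on GRCh38.p14, 5′ to 3′ on the gene's strand. Gene positions elsewhere in the text are from Gencode and begin further upstream for PLK1 and KIF20A. The windows of these genes therefore lie inside the Gencode positions, and their matches depend on the start used. Capitals mark, on either strand, the CCAAT box, both forms of the CHR-like letters, and the E2F-like letters TTTGGCGC, TTTCGCGC, TTTCCCGC and TTTGCCGC, and adjoining capitals can be overlapping matches.
CDC20 (chr1:43358731-43358980, plus strand): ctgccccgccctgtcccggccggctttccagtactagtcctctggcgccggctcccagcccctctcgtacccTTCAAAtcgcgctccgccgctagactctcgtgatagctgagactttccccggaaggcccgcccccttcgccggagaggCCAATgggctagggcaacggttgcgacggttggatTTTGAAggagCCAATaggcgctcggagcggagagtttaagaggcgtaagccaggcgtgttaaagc
PLK1 (chr16:23678639-23678888, plus strand): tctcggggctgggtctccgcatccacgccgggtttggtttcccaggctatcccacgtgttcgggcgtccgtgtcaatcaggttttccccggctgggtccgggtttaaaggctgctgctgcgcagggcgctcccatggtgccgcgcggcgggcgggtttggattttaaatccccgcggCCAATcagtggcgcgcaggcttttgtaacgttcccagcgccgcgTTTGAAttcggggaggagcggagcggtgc
KIF20A (chr5:138178862-138179111, plus strand): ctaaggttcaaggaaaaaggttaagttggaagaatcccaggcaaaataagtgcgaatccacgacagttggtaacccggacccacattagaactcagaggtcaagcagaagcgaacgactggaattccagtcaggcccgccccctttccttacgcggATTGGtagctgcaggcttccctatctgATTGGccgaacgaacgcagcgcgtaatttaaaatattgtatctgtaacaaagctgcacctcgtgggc
PCNA (chr20:5126623-5126872, minus strand): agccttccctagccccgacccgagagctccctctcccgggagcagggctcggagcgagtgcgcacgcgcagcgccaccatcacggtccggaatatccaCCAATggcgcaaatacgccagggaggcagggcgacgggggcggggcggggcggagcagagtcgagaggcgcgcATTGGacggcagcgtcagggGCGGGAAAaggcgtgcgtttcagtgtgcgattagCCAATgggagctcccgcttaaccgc
MCM6 (chr2:135876444-135876693, minus strand): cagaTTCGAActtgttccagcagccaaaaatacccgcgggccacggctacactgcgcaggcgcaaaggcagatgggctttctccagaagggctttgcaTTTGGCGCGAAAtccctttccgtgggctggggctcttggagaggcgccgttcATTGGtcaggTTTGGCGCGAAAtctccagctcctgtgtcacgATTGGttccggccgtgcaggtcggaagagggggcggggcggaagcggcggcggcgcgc
CDC20 held 2 CCAAT and 2 CHR-like matches, PLK1 held 1 of each, and KIF20A held 2 CCAAT boxes on the other strand and no CHR-like match. MCM6 held 4 E2F-like matches in 2 overlapping pairs, 2 CCAAT boxes and 1 CHR-like match, and PCNA held 1 E2F-like match and 3 CCAAT boxes. CCAAT boxes were thus present in all 5 promoters, and a CHR-like match in both waves.

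The same letters were counted in windows of 300 bases, 250 before to 50 after the first listed start of each gene. CHR-like letters stood in 73.3% of the 45 promoters found for the 54 genes of the G2M phase list of Seurat, a list of G2 and mitosis genes that came from outside these data. They stood in 6.06% of the 33 promoters found for the 43 genes of its S phase list, in 11.9% of the 5836 promoters of genes above the expression minimum, and in 16.6% of all 27305. The E2F-like letters stood the other way round, in 48.5% of the S phase promoters and 6.67% of the G2M phase promoters, against 6.24% of the genes above the minimum and 3.33% of all. A CCAAT box was present in 68.9% of the G2M phase and 69.7% of the S phase promoters, compared with 38.9% of the genes above the minimum and 35.7% of all. At least 2 CCAAT boxes were present in 51.1% and 30.3%, against 15% of the genes above the minimum and 11.3% of all. Among the genes at least 2-fold higher in high cells, 45.2% of 312 promoters held CHR-like letters, while 10.9% of 101 promoters did so among those at least 2-fold lower. A match is only a run of letters. UBE2C is named without a promoter.

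The share of the 7 genes had a median of 0.867% of the UMIs in high cells, 0.117% in middle cells and 0.0134% in low cells. It ranged from 0.504% to 1.95% in high cells and from 0 to 0.0276% in low cells, of which 41 had no UMI of any of the 7 genes. The last high cell had 0.504% and the first cell outside had 0.500%. The last low cell had 0.0276% and the first cell outside 0.0277%. Depth and the mitochondrial share lay close together in the 3 groups. Median depth was 18682 UMIs per high cell, 17492 per middle cell and 17069.5 per low cell, the median number of detected genes was 4364.5, 4273 and 4185.5, and the mitochondrial share was 5.49%, 6.04% and 6.43%. In all, the high cells held 4150638 UMIs and the low cells 5685842. Among 163 high and 244 low cells chosen by the same share within a middle range of depth, 395 genes were at least 2-fold higher and 160 lower, compared with 379 and 143 for the 500 cells.

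Genes used here as markers of VCaP, of which EPCAM and KRT18 are general epithelial genes, were captured in both groups. ERG, the oncogenic transcription factor of the fusion, stood at 163.6 CPM (UMIs of the gene scaled to the same total of 1000000 UMIs in each group) in low and 49.6 CPM in high cells. EPCAM, an epithelial adhesion gene, stood at 417 CPM in low and 424 CPM in high cells, and KRT18, a luminal keratin, at 365 and 286 CPM. PPP2R2A had no UMI in either group. Of the leukocyte list, 4 of 7 genes were in the table, with 5 UMIs in all low and 0 in all high cells, and of the endothelial list 3 of 6, with 5 and 2 UMIs. Of the fibroblast list, only LUM passed the minimum, at 19.5 CPM in low and 23.1 CPM in high cells.

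The 7 genes that defined the share differed as the choice required. TOP2A, the topoisomerase that disentangles sister chromatids (chr17:40388525-40417896), stood at 42 CPM in low, 672 CPM in middle and 3315 CPM in high cells. In single high cells it ranged from 9.15 to 85.7 UMIs per 10000, with a median of 30.4, and the highest low cell had 2.63, so the groups did not overlap. CCNB1, cyclin B1, the partner of CDK1 at mitotic entry, stood at 19.9 CPM in low and 1322 CPM in high cells. MKI67, the proliferation antigen that coats mitotic chromosomes, stood at 17.8 and 538 CPM, CENPF, a kinetochore protein, at 23 and 1473 CPM, and UBE2C, the ubiquitin-conjugating enzyme of the anaphase-promoting complex, at 22.5 and 1660 CPM.

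Outside the 7 genes, 7328 genes had a mean over both groups of at least 10 CPM. Of these, 379 were at least 2-fold higher in high cells, 5.17% of the genes, and 143 were at least 2-fold lower, 1.95%. Ratios are log2 of CPM + 1 in high over low cells, given with exact 95% intervals that cover counting error only. The higher and the lower genes were unlike in size. As many as 170 genes were at least 4-fold higher and 54 at least 16-fold higher, but 0 genes were 4-fold lower, and the lowest ratio was -1.99. The median of all genes was -0.05. Of the 379 higher genes, 147 were in one of the cell cycle lists used here, which had 268 genes above the minimum, while 8 of the 143 lower genes were.

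**Figure D1:**
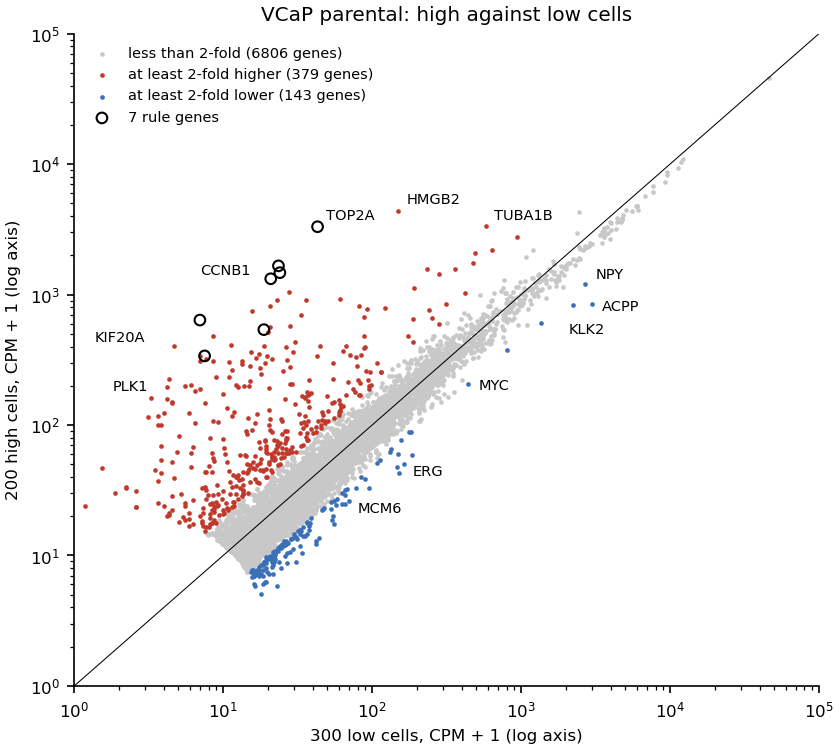
Each point is 1 of the 7328 genes, with CPM + 1 in the 300 low cells on the horizontal and in the 200 high cells on the vertical axis, both on log scales; the line marks equal levels and open circles mark the 7 genes that chose the cells. The 379 higher genes reach far from the line, up to KIF20A at 6.42 on the log2 scale, whereas the 143 lower genes, KLK2 and ERG among them, stay close to it.

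Mitotic regulators came first. Of the G2M phase list without the genes of the share, 46 of 48 members were at least 2-fold higher and 0 lower, with a median ratio of 4.29. The 2 remaining members were CTCF, the insulator protein, at 0.95, and CBX5, a heterochromatin protein, at 0.72. Summed over the list, the level was 1848 CPM in low, 6591 CPM in middle and 22802 CPM in high cells. Every high cell had a larger share of this list, 1.12% at the lowest, than the highest low cell, 0.429%. Of the 200 cells with the largest share of it, 189 were high cells.

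Among mitotic cyclins, kinases and phosphatases, 20 of 22 were higher, with a median of 3.88. PLK1, the kinase of centrosome maturation and spindle assembly (chr16:23677656-23690367), stood at 3.17 CPM in low and 194 CPM in high cells, a ratio of 5.55 (95% interval 5.01 to 6.09). It had a UMI in 18 of 300 low and 187 of 200 high cells, and its highest low cell had 0.842 UMIs per 10000, below 163 of the high cells. CDC25C, the phosphatase that activates CDK1, had a ratio of 5.61, and AURKA, the centrosomal Aurora kinase, stood at 22 CPM in low, 99.8 CPM in middle and 910 CPM in high cells. Its activator TPX2 ranged from 2.64 to 24.9 UMIs per 10000 in high cells and reached 2.33 in low cells, so those groups did not overlap. AURKB, the Aurora kinase of the chromosomal passenger complex, had a ratio of 4.77 and CCNB2 of 3.92. CDK1 itself had a ratio of 4.64 and was already at 278 CPM in middle cells. Even so, 5 of the 200 high cells had no UMI of it.

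The anaphase-promoting complex is the ubiquitin ligase that ends mitosis. In its list, the genes above the minimum that are not subunits had larger ratios than the subunits. PTTG1, securin, had a ratio of 5.31, CDC20, the coactivator that presents substrates (chr1:43358981-43363203), of 5.16, ESPL1, separase, of 3.89, and FBXO5, the inhibitor EMI1, of 2.62. Of the subunits above the minimum, only CDC27 was past 2-fold, at 1.32. ANAPC11, the catalytic RING subunit, was at 0.25 (0.17 to 0.32) and ANAPC16 at -0.13 (-0.25 to -0.02). CDC20 ranged from 0 to 10.2 UMIs per 10000 in high cells, with a median of 3.85, and from 0 to 1.30 in low cells, and 185 high cells lay above all low cells.

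Of the centromere and kinetochore genes, 29 of 36 were higher, with a median of 2.37. CENPE, the kinetochore motor, had a ratio of 5.58, NDC80, the microtubule-binding subunit of the outer kinetochore, of 5.47, CENPA, the centromeric histone, of 4.94, and BIRC5, survivin, of 4.37. MAD2L1, a checkpoint protein, stood at 87.2 CPM in low, 225 CPM in middle and 479 CPM in high cells. Of the mitotic motors and spindle proteins, 26 of 30 were higher, with a median of 4.07. KIF20A, a kinesin of the central spindle (chr5:138178719-138187723), had the largest ratio of the genes of at least 50 CPM that did not define the share. It was 6.42 (5.91 to 6.94), from 21 UMIs in low and 1665 in high cells. It had a UMI in 20 low cells and 196 high cells. ASPM, a spindle pole protein, had a ratio of 4.68, CKAP2, a microtubule-associated protein, of 3.92, and STMN1, which destabilises microtubules, of 2.35.

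Tubulins differed from one another. TUBA1B had a ratio of 2.52, TUBB4B of 2.7, TUBA1C of 2.93 and TUBB of 1.68, whereas TUBA1A was at -0.03. Tubulin genes share sequence, so reads could be split between them. Of the condensin, cohesin and chromosome structure genes, 18 of 23 were higher, with a median of 2.11. HMGB2, a chromatin protein that bends DNA, was the most abundant gene with a large difference, at 148 CPM in low, 1468 CPM in middle and 4413 CPM in high cells. Single high cells had 18.7 to 83.3 UMIs of it per 10000 and low cells 0 to 12.7, so all 200 high cells lay above all low cells. SMC4, the condensin ATPase, had a ratio of 2.74, RAD21, the cleavable cohesin subunit, of 1.89, and the histone variant H2AZ1 of 1.77. For cytokinesis, 12 of 13 genes were higher, with a median of 4.11. They included CDCA3 at 5.81, CEP55, a scaffold of the midbody, at 5.71, ECT2, which activates RhoA, at 3.83, and PRC1, which bundles midzone microtubules, at 4.40. CHMP4B, of the abscission machinery, was at 0.01.

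**Figure D2:**
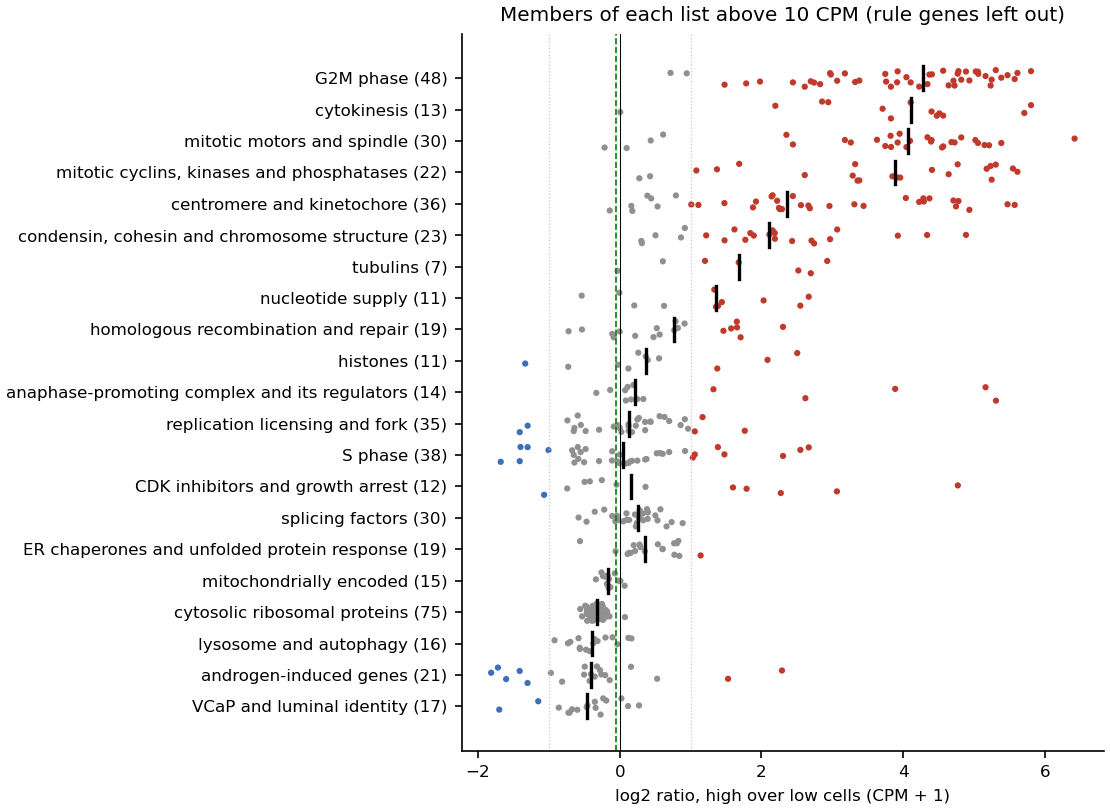
Each point is 1 gene of a list above 10 CPM, placed by its log2 ratio of CPM + 1 in high over low cells, with the number of genes in brackets; black bars are list medians, the dashed green line is the median of all genes, -0.05, and red and blue mark genes past 2-fold. The first 6 lists, from G2M phase to condensin and cohesin, have medians of 2.11 to 4.29, the replication and S phase lists centre near 0 with members on both sides, and the androgen-induced and VCaP identity lists centre at -0.41 and -0.46.

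Replication genes did not follow the mitotic ones. Of the S phase list, 7 of 38 genes were at least 2-fold higher in high cells and 5 lower, with a median of 0.04, but the list was at its highest between the ends. Summed, it stood at 2084 CPM in low cells and 2856 CPM in high cells, and at 5474 CPM in middle cells. Along the share, it went from 2084 CPM over 3972, 6106 and 6179 CPM in the 3 equal parts of the middle cells to 2856 CPM in the high cells. In single cells, the S phase share had a median of 0.125% in low, 0.531% in middle and 0.248% in high cells. Of the 200 cells with the largest S phase share, 180 were middle, 16 low and 4 high cells. The 300 low cells were therefore not of 1 kind, and their S phase share reached 0.999%.

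PCNA, the sliding clamp of DNA polymerase (chr20:5114953-5126626), stood at 190.5 CPM in low and 186.5 CPM in high cells, a ratio of -0.03 (-0.16 to 0.10), and at 586 CPM in middle cells. It ranged from 0 to 14.1 UMIs per 10000 in low and from 0 to 10.1 in high cells, which overlap. MCM6, a subunit of the replicative helicase (chr2:135839626-135876443), stood at 68.9 CPM in low, 121 CPM in middle and 25.3 CPM in high cells, a ratio of -1.41 (-1.72 to -1.11). It had a UMI in 162 of 300 low, 361 of 497 middle and 63 of 200 high cells. MCM5 had a ratio of -1.30, UNG, which removes uracil from DNA, of -1.68, CDCA7 of -1.40, and CCNE2, the cyclin E of the G1/S transition, of -1.01. The value for CCNE2 lies at the limit of 2-fold, which it missed in 11 of 17 other settings, with a UMI in 87 low and 47 high cells. The 7 S phase members on the other side included TYMS at 2.67 and RRM2 at 2.55, both of which make DNA precursors, and CENPU, an inner kinetochore protein, at 1.48. TYMS was also highest between the ends, with 146 CPM in the last part of the middle cells compared with 103 CPM in high cells.

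In all, 24 genes were at least 2-fold higher in middle cells than in both low and high cells, 0.327% of the 7344 genes above the minimum in this comparison, while 0 genes were 2-fold lower than both. By level, they were led by PCNA, MCM4, HELLS, a chromatin remodeler, FAM111B and MCM7. Many of the 24 are known for replication or repair. NTS, the peptide neurotensin, is not, and stood at 8.09 CPM in low, 22.3 CPM in middle and 0.241 CPM in high cells. The nucleotide supply list had 7 of 11 genes higher in high than in low cells, with a median of 1.36, and the replication licensing and fork list 3 of 35 higher and 2 lower, with a median of 0.13. Of the homologous recombination and repair list, 6 of 19 were higher, with a median of 0.77. Among histones, H4C3 stood at 491 CPM in low, 2493 CPM in middle and 2088 CPM in high cells, and H2AC6 had a ratio of -1.33. Histone genes are near copies of one another and mostly lack poly(A) tails, so these values are uncertain.

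**Figure D3:**
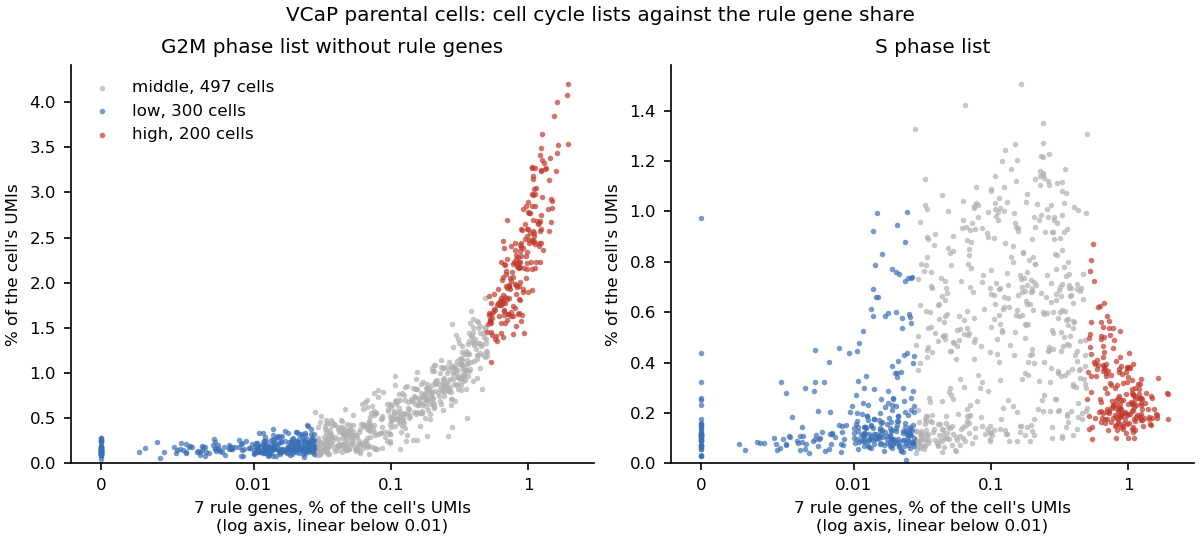
Each point is 1 of the 997 kept VCaP parental cells; the horizontal axis is the share of the 7 genes that chose the cells (log axis, linear below 0.01%) and the vertical axes are the shares of the G2M phase list without those genes and of the S phase list, in % of the cell's UMIs. The G2M phase share lies above 1.12% in all 200 high cells and below 0.430% in all 300 low cells, whereas the S phase share is largest in middle cells, up to 1.5%.

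Some inhibitors of the cell cycle kinases were among the higher genes. Of the list of these inhibitors and growth arrest genes, 5 of 12 were at least 2-fold higher, 1 was lower and 6 were within 2-fold, with a median of 0.16. CDKN3, a phosphatase that acts on CDK1, had a ratio of 4.77, CDKN2D, p19, of 3.07, CDKN2C, p18, of 2.27, CDKN1B, p27, of 1.79 (1.52 to 2.07) and CDKN1A, p21, of 1.6 (1.30 to 1.90). CDKN1A was highest before the high cells, at 123 CPM in the last part of the middle cells compared with 69.1 CPM in high and 22.2 CPM in low cells. It had a UMI in 104 of 200 high and 81 of 300 low cells and reached 7.45 and 2.44 UMIs per 10000, so the groups overlapped. MDM2, the ligase of p53, stood at 52.9 CPM in low and 146 CPM in high cells, a ratio of 1.44. BTG2, an antiproliferative gene, went the other way, at -1.07. Of the G1 cyclins and kinases, CCND1, cyclin D1, was at 0.22 (0.15 to 0.29) and CDK4 at -0.12 (-0.25 to 0.01). FOXM1, the factor of late genes, was the one cell cycle transcription factor above the minimum and past 2-fold upward, with 5.10 CPM in low, 28.7 CPM in middle and 60 CPM in high cells, a ratio of 3.32. MYC, the growth factor-induced oncogene, was the one downward, from 438 CPM in low and 339 CPM in middle to 207 CPM in high cells, a ratio of -1.08 (-1.19 to -0.97), which was short of 2-fold with TMM factors.

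The lower genes included several that androgen induces in the prostate. Of the androgen-induced list, 5 of 21 genes were at least 2-fold lower, against 1.95% of all genes, and the median was -0.41, against -0.05. Other lists had medians of a like size. Lysosome and autophagy genes were at -0.40, long noncoding RNAs at -0.45 and ribosomal proteins at -0.32, with 0 of 16, 1 of 15 and 0 of 75 genes 2-fold lower. KLK2, a secreted kallikrein protease (chr19:50861568-50880567), stood at 2234 CPM in low, 1460 CPM in middle and 839 CPM in high cells, a ratio of -1.41 (-1.47 to -1.36). It ranged from 2.92 to 71.7 UMIs per 10000 in low cells, with a median of 21.4, and from 0.423 to 29.7 in high cells, with a median of 7.32. The groups overlapped, but 192 of 200 high cells lay below the median of the low cells. KLK2 shares sequence with KLK3, which was below the minimum here, so reads could be split between them. TMPRSS2, the androgen-induced protease, was at -1.72, SLC45A3 at -1.81 and TRPM8 at -1.30, and STEAP2 at -0.97 was just short of 2-fold. Members with small differences included FKBP5 at -0.32, KLK4 at -0.41 and ACSL3 at -0.14. The 2 members at least 2-fold higher were CENPN, at 2.29, and MPHOSPH9, at 1.53. CENPN is a centromere protein and MPHOSPH9 was named for its phosphorylation in mitosis.

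ACPP, prostatic acid phosphatase (current symbol ACP3, chr3:132317369-132368302), had the lowest ratio of the genes of at least 50 CPM, -1.83 (-1.88 to -1.77). It stood at 2981 CPM in low, 1838 CPM in middle and 839 CPM in high cells, and 197 of 200 high cells lay below the low median of 27.4 UMIs per 10000. ERG (chr21:38380027-38661780) had a ratio of -1.70 (-1.92 to -1.48). It had a UMI in 248 of 300 low and 107 of 200 high cells, with medians of 1.38 and 0.414 UMIs per 10000. TMPRSS2 (chr21:41464300-41531116), the other gene of the fusion, had a ratio of -1.72 (-2.16 to -1.30). Other genes, such as ACPP and SLC45A3, had ratios of a like size, and a link between ERG and TMPRSS2 was not tested. NPY, neuropeptide Y, stood at 2695 CPM in low, 2357 CPM in middle and 1214 CPM in high cells, and 154 of 200 high cells lay below the low median. Of the other VCaP and luminal identity genes, KRT8 was at -0.67, FOLH1, prostate-specific membrane antigen, at -0.86, FOXA1 at -0.19, HOXB13 at -0.27 and EPCAM at 0.02 (-0.07 to 0.11), so the list ran from near equal to -1.70. STEAP1, another prostate membrane antigen, was at -1.11, FTL, the ferritin light chain, at -1.17 and TP53INP1, a p53 target, at -1.61. These genes were not at one extreme only. KLK2, ACPP, ERG and MYC each stood lower in every successive part of the cells ordered by share, ERG for instance at 163.6, 132, 82.5, 73.9 and 49.6 CPM.

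**Figure D4:**
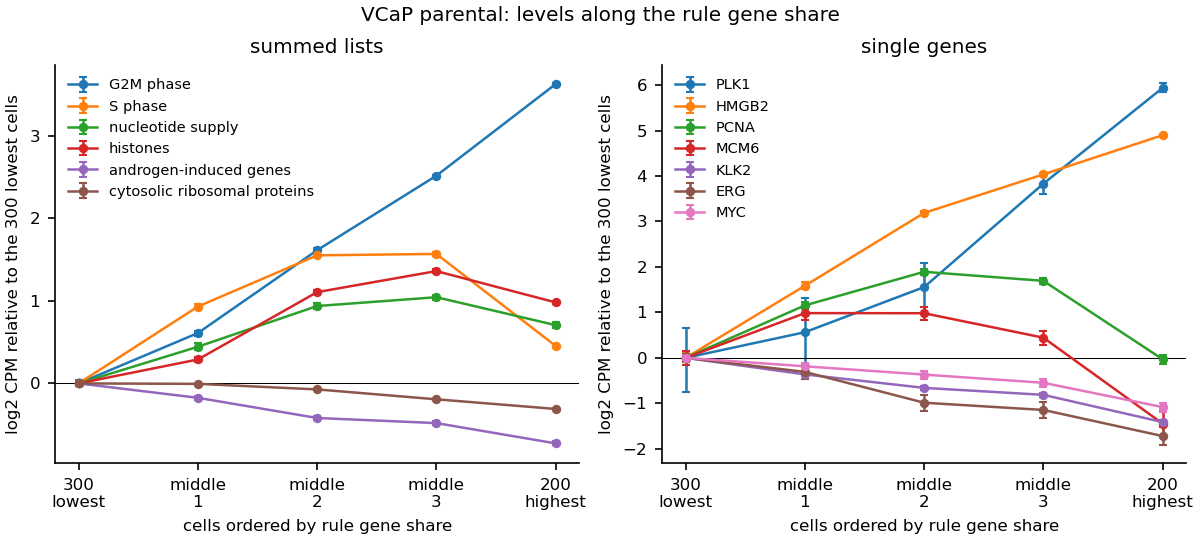
Points are log2 CPM relative to the 300 low cells, for summed lists on the left and single genes on the right, in the low cells, 3 equal parts of the middle cells and the high cells; bars are exact 95% Poisson intervals of the counts. The G2M phase list and PLK1 climb through all parts, the S phase list, PCNA and MCM6 peak between the ends, and KLK2, ERG and MYC descend through all parts.

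Housekeeping lists had few genes past 2-fold. All 75 cytosolic ribosomal protein genes above the minimum stayed within 2-fold, with a median of -0.32 and a summed level of 218181 CPM in low and 176084 CPM in high cells. Since CPM sums to the same total in both groups, a higher level of some genes lowers the CPM of others. CPM alone therefore cannot tell fewer molecules per cell from a smaller share. The captured UMIs of these genes were 730861 in the 200 high and 1240542 in the 300 low cells. The mitochondrially encoded genes had a median of -0.17. In the endoplasmic reticulum, the chaperones HSPA5 (BiP) and HSP90B1 had ratios of 0.84 and 0.81, and 1 of 19 genes, DNAJB11, was past 2-fold, at 1.14. The 30 splicing factors had a median of 0.26 and 0 genes past 2-fold, with HNRNPA2B1 at 0.89. Of the remaining higher genes, KPNA2, a nuclear import receptor, had a ratio of 4.35, ARL6IP1, a membrane protein of the endoplasmic reticulum, of 2.57 and CALM2, calmodulin, of 1.57.

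High cells were not uniform. Across the 200 high cells, CCNB1 went with CDC20 (Spearman rho 0.55, Pearson r 0.56) and with AURKA (0.54 and 0.53). It went less with TOP2A (0.46 and 0.45), and least of these with PLK1 (0.36 and 0.29). CCNB1 and the S phase share went in opposite directions (-0.49 and -0.51). These cells share 1 library, each value was divided by the depth of its cell, and CCNB1 and TOP2A both entered the choice, so the correlations are given as a description.

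The same choice of cells was then made in the libraries that had not been used. It was less sharp there, because 524 of 947 kept VCaP-ENZ48 cells and 420 of 944 kept LNCaP-ENZ168 cells had no UMI of the 7 genes. All 300 low cells thus had a share of 0 and were taken by column order. The high cells began at 0.0140% in VCaP-ENZ48 and 0.0522% in LNCaP-ENZ168, with medians of 0.0318% and 0.190%, compared with 0.867% in VCaP parental. The lower quartile of the VCaP-ENZ48 high cells was 0.0203%. Some of them thus had shares within those of the low cells of VCaP parental, 0 to 0.0276%. In VCaP-ENZ48 the high cells were also shallower, with a median of 6440 UMIs compared with 14983.5 in low cells, while in LNCaP-ENZ168 the medians were 5642 and 5631. The part of the lower shares and of depth in the values was not tested.

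The higher genes were largely higher again. Of the 379 genes, 294 were above the minimum in VCaP-ENZ48, where 155 (52.7%) were at least 2-fold higher and 0 lower, against 2.94% and 0.312% of all 8018 genes there. In LNCaP-ENZ168, 218 of 344 (63.4%) were at least 2-fold higher and 0 lower, against 5.11% and 2.61% of all 9047 genes. The medians were 1.09 and 1.56, compared with -0.02 over all genes in each. KIF20A was at 4.91 (4.08 to 5.33) in VCaP-ENZ48 and 5.30 in LNCaP-ENZ168, HMGB2 at 4.41 and 3.26, and AURKA at 3.61 and 3.69. Of the G2M phase list, 36 of 44 and 43 of 47 genes were higher.

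The lower genes came back less. Of the 143 genes, 0 of 138 were at least 2-fold lower in VCaP-ENZ48 and 4 (2.90%) higher. Over all genes there, 0.312% were lower and 2.94% higher. In LNCaP-ENZ168, 10 of 104 (9.62%) were lower and 6 (5.77%) higher, against 2.61% and 5.11% of all genes. Apart from the 9.62%, these counts were near the shares of all genes. The medians of the lower genes were -0.27 and -0.47, and 106 of 138 and 81 of 104 lay below 0, against 52.9% and 52.0% of all genes. ACPP was at -0.61 (-0.65 to -0.57) in VCaP-ENZ48 and -0.88 in LNCaP-ENZ168, and MYC at -0.33 (-0.44 to -0.22) and -0.47. KLK2 was at -0.37 (-0.42 to -0.33) in VCaP-ENZ48 and 0.02 in LNCaP-ENZ168, and ERG at -0.39 (-0.72 to -0.07) in VCaP-ENZ48. NPY went from -1.15 in VCaP parental to 0.48 (0.28 to 0.67) in VCaP-ENZ48. The p21 and p27 genes were also closer to equal, with CDKN1A at 0.79 and 0.17 and CDKN1B at 0.33 and 0.30. The S phase list stood out, with 27 of 37 genes higher in VCaP-ENZ48 and 33 of 41 in LNCaP-ENZ168, compared with 7 of 38 in VCaP parental. No difference between libraries was tested, since each is 1 library and the high cells differ in share between them.

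**Figure D5:**
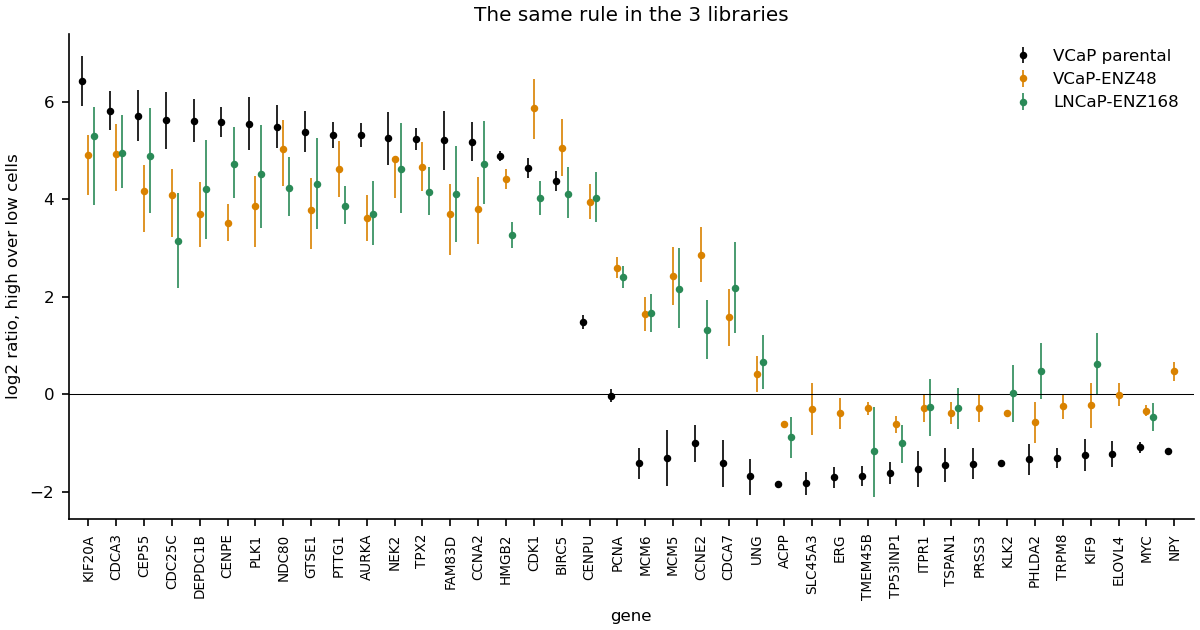
Points are log2 ratios of CPM + 1 in high over low cells for named genes in VCaP parental (black), VCaP-ENZ48 (orange) and LNCaP-ENZ168 (green), with exact 95% intervals of the counts; genes under 10 CPM in a library have no point there. The genes from KIF20A to BIRC5 lie above 3 in all 3 libraries, MCM6, MCM5, CCNE2 and CDCA7 lie below -1 in VCaP parental and above 1 in both others, and the lower genes on the right lie closer to 0 in VCaP-ENZ48.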

How the data were processed

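The authors made the deposited tables of UMI counts per gene and barcode with the Drop-seq tools pipeline, STAR and Picard at default settings on GRCh38 with Gencode genes, expecting 1000 cells per library. The values used here are these deposited counts, and doublets were not called. The 3 libraries hold 6513423 to 19533049 UMIs. Positions are from Gencode 44 on GRCh38.

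UMIs were summed over the chosen cells and scaled to a total of 1000000 UMIs (CPM), with Python 3.11.15, pandas 2.3.3 and scipy 1.17.1. Ratios used a pseudocount of 1 CPM and genes of at least 10 mean CPM, with calls at 2-fold. Intervals are exact (conditional binomial for ratios, Poisson for levels) at 95% and cover counting error only. With 1 library per group and cells chosen by their values, no test was run. The calculation was tested on simulated data. TMM factors came from edgeR 4.0.16.

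The cells, the 44 gene lists and the genes to name were chosen with earlier results of these data known. Named were the 7 share genes, the 15 highest and 15 lowest ratios of genes with at least 50 CPM in either group, 3 genes of highest level per list with members opposite to most of their list, and 14 chosen genes. A further 36 genes, and FAM111B, NTS and PPP2R2A, were named after their values were seen. The cluster lists are the study's markers from LNCaP-derived libraries, and its Persist and PROSGenesis signatures rest on gene sets from other publications.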

Additional observations from a re-analysis of the deposited data

Results flagged for a closer look

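Of the S phase genes, 4 went in opposite directions in the same comparison of high with low cells. They were at least 2-fold lower in the high cells of VCaP parental and at least 2-fold higher in those of both other libraries, and the differences were not tested. MCM6 had a log2 ratio of -1.41 in VCaP parental, 1.66 in LNCaP-ENZ168 and 1.65 in VCaP-ENZ48. MCM5 was at -1.30, 2.16 and 2.43, CDCA7 at -1.40, 2.17 and 1.58, and CCNE2 at -1.01, 1.32 and 2.86. The high cells of VCaP parental had at least 0.504% of their UMIs in the 7 share genes, while those of LNCaP-ENZ168 began at 0.0522% and those of VCaP-ENZ48 at 0.0140%. In VCaP parental, cells between the ends, with shares of 0.0277% to 0.500%, had more MCM6 (121 CPM) and CCNE2 (118 CPM) than both high and low cells. The part of the different shares in the opposite ratios was not tested.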

How the results depend on the processing

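Results were recomputed under 14 settings chosen at the start and 3 chosen after seeing the data. No named ratio past 2-fold changed direction. TMM factors gave 424 higher genes (379 in the report) and 98 lower genes (143). Scaling by the median of ratios gave 405 and 120. A pseudocount of 5 CPM gave 60 lower genes (143 in the report) and 2 lower PROSGenesis genes (6). A minimum of 50 CPM gave 193 higher and 22 lower genes, 2 higher CDK inhibitors (5), 3 lower androgen-induced genes (5), 3 higher recombination genes (6) and 0 lower PROSGenesis genes. With no minimum beyond 1 UMI there were 634 higher and 773 lower genes, with 10 lower PROSGenesis and 9 lower Initial cluster genes. With 100 cells per group there were 289 lower genes, 11 higher S phase genes (7), 11 higher recombination genes, 11 lower Initial cluster genes (5) and 34 higher Cluster 8 genes (21). Leaving out barcodes that end in N (added, 28 high and 41 low cells) gave 345 lower genes, 3 higher anaphase-promoting complex genes (5) and 8 lower Initial cluster genes. TMM factors, thinning of the share to 5000 UMIs and only barcodes that end in N (added) each gave 3 lower Initial cluster genes. The cause of these shifts was not tested, except that a minimum sets how many genes are counted.

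CCNE2 was short of 2-fold in 11 of 17 settings. MYC and BTG2 were short of 2-fold with TMM factors, and MCM5 and DDIT4 with a pseudocount of 5 CPM. MME was short of 2-fold with 100 cells per group, and BTG2 and DNAJB11 with only barcodes that end in N. MCM6, NPY, TMPRSS2 and CDC27, with 6 others, were so among the 28 high and 41 low cells whose barcodes end in a base. The intended choice of 200 and 300 cells among barcodes that end in a base could not be run with 138 cells. No paired analysis was possible because only 1 library stands for a condition, and no replicate could be left out. Low counts limit the intervals of genes near the minimum, and no interval covers differences between cultures.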

Other observations

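Marker lists of single-cell clusters of LNCaP-derived libraries differed from one another in the comparison of high with low cells. Of Cluster 11, 193 of 253 genes above the minimum were at least 2-fold higher and 0 lower, with a median of 2.05, and its summed level was 20602 CPM in low, 39214 CPM in middle and 77491 CPM in high cells. Cluster 5 had 100 of 152 higher (median 2.07) and Cluster 9 124 of 248 (median 1.00). Cluster 8 had 21 of 79 higher and 4 lower, with a median of 0.42, and stood highest in middle cells, at 17691 CPM compared with 8899 CPM in low and 16936 CPM in high cells. Of the Persist signature, 8 of 11 genes outside the share were higher, with a median of 2.97. The PROSGenesis signature had 2 of 45 higher and 6 lower, with a median of -0.23, the Initial clusters 3 of 127 higher and 5 lower, the ENZ-induced clusters 4 of 142 higher and 1 lower, and Cluster 10 had 1 of 68 in each direction. Over all genes, 5.17% were higher and 1.95% lower.

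Metabolic and stress lists had few genes past 2-fold, with medians on both sides of the -0.05 of all genes. Of cholesterol and fatty acid synthesis, 0 of 20 genes were past 2-fold, with a median of 0.26, and of lysosome and autophagy 0 of 16, with a median of -0.40. Glycolysis and hypoxia had a median of -0.10 and immediate early genes of 0.03, each with 1 lower gene. The heat shock list had 1 of 11 genes higher, with a median of 0.04, and the interferon list 0 of 7, with a median of 0.26. The long noncoding RNAs had 1 of 15 lower, with a median of -0.45, the neuroendocrine markers 0 of 5 past 2-fold, with a median of -0.18, and 1 of 2 LNCaP line genes, MME, was higher, at 1.39.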
